A study of Mus musculus with 24 samples.

Results

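The IFIT genes (interferon-induced proteins with tetratricopeptide repeats) were followed in mouse ovarian cancer cells treated with cisplatin, with AU-15330, or with both. The members were the rows of the deposited count table with the symbols Ifit1, Ifit2, Ifit3 and Ifit3b. All 4 were present among 25229 genes, and all 4 passed the filter on low counts, as did 12941 genes in total. The family was chosen by its measured changes, since earlier results of these data had shown Ifit1 among the largest increases with cisplatin and among the most negative interactions of the drugs. The cisplatin effect and the interaction are therefore given as a description, without a test. The same applies to the other differences of Ifit1 and to ratios of the members to it.

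The cells were ID8 P53 KO cells, a C57BL/6-derived ovarian cancer line without functional p53 (Trp53−/−), grown as a single cell line with no host or immune cells added. Every group carried this deletion and was treated for 6 days. Controls received the vehicle DMSO. The other groups received 2.5 μM AU-15330 (AU15330 in the labels), 750 nM cisplatin, or both at these doses, with 6 libraries per group numbered 1 to 6. AU-15330 is a PROTAC that directs the SWI/SNF ATPases SMARCA4 and SMARCA2 to degradation. Cisplatin is a platinum drug that crosslinks DNA. Nothing in the labels says that the replicates came from separate cultures, so p-values measure only the spread between these libraries, which may be technical.

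IFIT proteins are effectors of the antiviral response. Mouse IFIT1 binds RNA whose cap lacks 2′-O-methylation and blocks its translation, and IFIT2 binds RNA and eIF3. In humans, IFIT3 is known to stabilize IFIT1 on RNA. Their genes stay almost silent until type I or type III interferon signals through receptors, JAK1 and TYK2 to the transcription factor complex ISGF3, which contains STAT2 and IRF9 and binds interferon-stimulated response elements. IRF3, activated by cGAS-STING or by RIG-I-like receptors and MAVS, can also switch on IFIT genes without interferon.

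The family lies in a cluster of 99.3 kb on chromosome 19 of the mouse genome (GRCm38, GENCODE M21 annotation). On the plus strand, Ifit2 lies at 34550694 to 34576419, Ifit3 at 34583531 to 34588731, Ifit3b at 34607970 to 34613401 and Ifit1 at 34640871 to 34650009. Their IFIT paralogs Ifit1bl1 and Ifit1bl2 are interspersed on the minus strand, and Ifit1bl2 and Ifit1 are arranged head to head with starts 128 bp apart. Ifit3 and Ifit3b are near copies, with 1198 of 1209 coding bases identical (99.1%), whereas the other pairs of members had 48.7% to 53.8% of aligned coding bases in common. Of all stretches of 70 bases, the read length, 94.4% were unique to Ifit1 within the transcript annotation and 100% to Ifit2, but only 56.9% to Ifit3 and 62.6% to Ifit3b, which shared 722 stretches. The division of reads between Ifit3 and Ifit3b is therefore uncertain.

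The sequences just upstream of the starts (RefSeq, GRCm38.p6, plus strand) are shown because the members differed in them at the motif bound by ISGF3 and IRF factors. Capitals mark the letters GAAANNGAAA or, on the other strand, TTTCNNTTTC, where N is any base. Ifit1 (chr19:34640759-34640888), Ifit3 (chr19:34583279-34583528), Ifit3b (chr19:34607707-34607956) and Ifit2 (chr19:34550564-34550693) read as follows.
Ifit1: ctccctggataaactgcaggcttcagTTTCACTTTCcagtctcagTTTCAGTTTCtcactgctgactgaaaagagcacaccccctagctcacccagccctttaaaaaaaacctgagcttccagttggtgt
Ifit3: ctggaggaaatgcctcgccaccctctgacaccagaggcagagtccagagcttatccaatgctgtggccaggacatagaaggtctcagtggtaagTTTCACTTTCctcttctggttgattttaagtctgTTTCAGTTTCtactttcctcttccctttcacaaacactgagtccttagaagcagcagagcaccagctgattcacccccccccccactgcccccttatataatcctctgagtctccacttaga
Ifit3b: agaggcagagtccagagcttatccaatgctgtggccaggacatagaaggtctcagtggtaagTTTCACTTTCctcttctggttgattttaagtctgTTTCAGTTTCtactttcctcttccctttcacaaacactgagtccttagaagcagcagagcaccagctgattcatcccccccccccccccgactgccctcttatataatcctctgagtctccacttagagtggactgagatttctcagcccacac
Ifit2: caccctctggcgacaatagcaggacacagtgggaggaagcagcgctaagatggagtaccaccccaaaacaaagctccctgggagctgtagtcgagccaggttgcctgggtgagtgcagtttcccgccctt

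Ifit1, Ifit3 and Ifit3b each held 2 matches, TTTCACTTTC and TTTCAGTTTC, within 250 bases of the start. They began 104 and 85 bases before the start of Ifit1, 156 and 122 bases before that of Ifit3, and 188 and 154 bases before that of Ifit3b. The windows of Ifit3 and Ifit3b could be aligned over 224 positions with 216 identical bases (96.4%). Ifit2 had 0 matches in the 250 bases before either of its RefSeq starts, which says only that these letters are not in those windows. Among all 32851 promoter windows of this length, 2.98% held a match, as did 3.17% of 10265 tested genes with a window. The pair of matches before Ifit1 also lies before Ifit1bl2, since the genes face away from each other.

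All levels below are CPM, read counts scaled to the library's total with TMM adjustment, and are given as mean ± SD over 6 libraries. Library totals were 17592588 to 25260009 counts, and 3 counts, taken as the floor, corresponded to 0.120 to 0.186 CPM. This floor covers counting error only. The ovarian surface and mesothelial markers of the line summed to 4093 to 6255 CPM with DMSO, 5028 to 5674 with cisplatin, 1500 to 1691 with AU-15330 and 1682 to 1885 with the combination. Of 11 tested markers of this list, 10 fell with AU-15330 relative to DMSO (37.2% of all tested genes), among them Krt19 from a mean of 1783 to 7.005 CPM, Krt18 from 646 to 122 CPM and Wt1 from 845 to 614 CPM. Krt7 and Pax8 were below the floor there. Leukocyte markers summed to 13.3 to 30.8, 12.3 to 18.8, 17.7 to 53.7 and 25.4 to 43.0 CPM in the same order. Of these 13 markers, 2 passed the filter (Cd68 and Cd14), Ncr1 and Siglech were at 0 in all libraries, and Ptprc, the pan-leukocyte gene, had at most 5 counts. From DMSO to AU-15330 the mean of Cd68 rose from 11.8 to 34.8 CPM, whereas that of Cd14 fell from 8.59 to 0.548 CPM. Of 4 endothelial markers, whose sum was highest with cisplatin (8.51 to 12.8 CPM, against 0.261 to 4.28 elsewhere), only Pecam1 passed, and Cdh5 and Kdr had at most 3 counts. Fibroblast markers, 5 of 6 of which passed, summed to 387 to 482 CPM with cisplatin and 164 to 657 elsewhere. Of these 5, 4 rose and 1 fell with AU-15330 relative to DMSO (36.2% and 37.2% of all tested genes). The 1 that fell was Col1a1, from a mean of 368 to 70.5 CPM, which made up much of the sum. The part of these genes in the results below was not tested. In bulk RNA, fewer cells that express a gene and less RNA per cell cannot be told apart.

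In all 4 members the order of the treatments was the same. Levels were lowest with DMSO, higher with AU-15330, higher again with the combination and highest with cisplatin alone. This order held in 6 of 6 replicate numbers for each member. The members were read in the same libraries and are not replicates of each other. A high level with cisplatin was also part of the choice of the family. The family summed to 2.26 ± 1.38 CPM with DMSO, 35.1 ± 11.1 CPM with AU-15330, 68.4 ± 10.5 CPM with the combination and 388 ± 82.6 CPM with cisplatin.

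**Figure D1:**
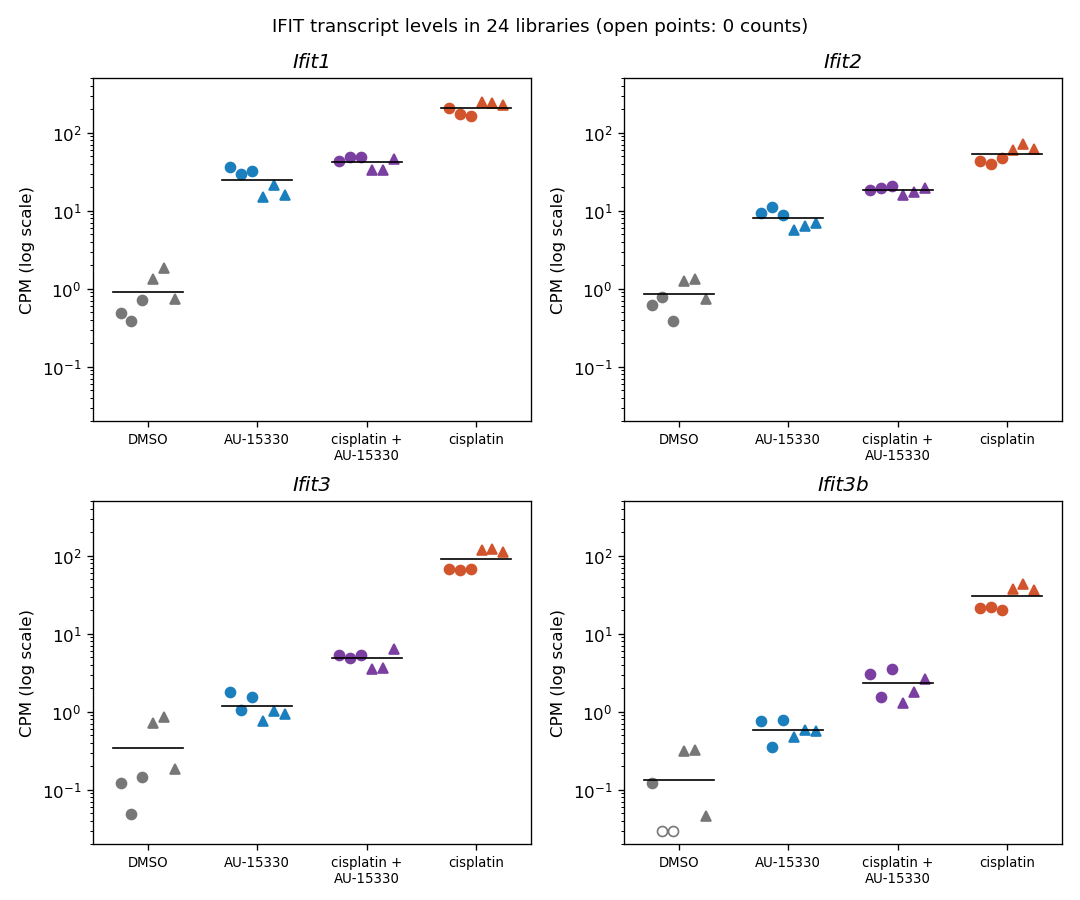
Level of each IFIT gene in every library (vertical axis, CPM on a log scale) by treatment. Circles are replicates 1 to 3, triangles replicates 4 to 6, bars group means, and open points libraries with 0 counts, drawn at the bottom of the panel. The order from DMSO to cisplatin was the same in the 4 panels, and the DMSO and AU-15330 libraries overlapped for Ifit3.

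In DMSO-treated cells the genes were near the floor. Ifit1 had 8 to 34 counts per library (0.390 CPM lowest, 0.734 median, 1.83 highest), and Ifit2 had 8 to 28 counts (0.386, 0.762 and 1.35 CPM). Ifit3 had 1 to 16 counts (0.0487, 0.165 and 0.862 CPM) and Ifit3b 0 to 7 counts (0, 0.0851 and 0.323 CPM). For Ifit3 and Ifit3b, replicates 4 and 5 held most of the DMSO counts, with 16 and 16 of 42 counts for Ifit3 and 7 and 6 of 16 for Ifit3b. At such counts the lanes of a library also differed, as in replicate 3, where 14 of 15 Ifit1 counts came from the first lane.

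With cisplatin alone, Ifit1 ran from 165 to 248 CPM (median 219), Ifit3 from 66.1 to 122 CPM (median 90.4), Ifit2 from 40.1 to 71.7 CPM (median 53.6) and Ifit3b from 20.1 to 43.9 CPM (median 29.3). No cisplatin library overlapped a DMSO library for any member, as for 14.2% of all tested genes in this direction. The mean was 229 times that of DMSO for Ifit1, 63.3 times for Ifit2, 266 times for Ifit3 and 226 times for Ifit3b. The fitted log2 fold changes were 7.83, 5.97, 8.02 and 7.77, with standard errors (SE) of 0.288, 0.225, 0.327 and 0.391. These values chose the family through Ifit1 and are not tested.

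AU-15330 alone raised all 4 members relative to DMSO. Among all tested genes 73.4% were called in this comparison and 36.2% were called higher, so that a call by itself is common here. The median log2 fold change of the members was 2.67, against −0.00301 for all tested genes. The interaction that led to the choice of the family contains this difference for Ifit1, so its value is not independent of the choice and no test of Ifit1 is given.

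Ifit1 ran from 15.02 to 36.6 CPM with AU-15330 (median 25.7), all above the 6 DMSO libraries. The mean rose to 25.2 ± 8.92 CPM, against 0.921 ± 0.555 CPM with DMSO, and the fitted log2 difference was 4.76 (SE 0.280). Ifit2 ran from 5.72 to 11.3 CPM (median 7.94), again without overlap, and rose from 0.855 ± 0.373 to 8.11 ± 2.12 CPM (log2 fold change 3.24, SE 0.231, adjusted p = 1.87e-12 by edgeR's quasi-likelihood test). The near-identical pair changed less. Ifit3 ran from 0.763 to 1.80 CPM (median 1.04) and overlapped the DMSO libraries, of which 1, replicate 5, reached 0.862 CPM. Its mean rose from 0.347 ± 0.348 to 1.19 ± 0.401 CPM (log2 fold change 1.76, SE 0.442, adjusted p = 0.000901). Ifit3b ran from 0.352 to 0.781 CPM (median 0.578), above all DMSO libraries, and rose from 0.134 ± 0.149 to 0.589 ± 0.165 CPM (log2 fold change 2.10, SE 0.584). Ifit3b passed the low-count filter through the cisplatin-treated groups, and did not pass it in a fit of the DMSO and AU-15330 libraries alone. No test of Ifit3b against DMSO or AU-15330 alone is therefore given.

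Each member was higher with AU-15330 in 6 of 6 same-numbered pairs, and 3 of 4 did not overlap, as did 24.5% of all tested genes in this direction. The size of the increase differed between the sets of replicates 1 to 3 and 4 to 6, a split chosen after seeing the data. The log2 fold change of Ifit1 was 5.91 in the first set and 3.76 in the second, and that of Ifit2 was 4.04 and 2.50. With replicates 4 to 6 alone, the log2 fold change was 0.63 for Ifit3 (adjusted p = 0.229 by edgeR, not called) and 1.25 for Ifit3b. With replicates 1 to 3 alone the values were 3.74 and 3.97, and Ifit3 was called. A fit of 3 libraries per group can miss a change, so a lost call does not show that a change was absent.

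In cells treated with cisplatin, addition of AU-15330 had the opposite direction. All 4 members fell relative to cisplatin alone, and none of the libraries overlapped, as for 25.5% of all tested genes in this direction. In this comparison 68.1% of all tested genes were called and 32.7% were called lower. The median log2 fold change was −3.01 for the members and 0.04 for all tested genes. For Ifit1, this difference is part of the interaction that led to the choice of the family. Its cisplatin libraries also gave the increase with cisplatin that led to the choice, so no test of Ifit1 is given here.

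Ifit3 fell most, from 92.4 ± 27.8 to 4.87 ± 1.08 CPM. Its combination libraries ran from 3.50 to 6.32 CPM (median 5.14), which left 5.27% of the mean with cisplatin alone (log2 fold change −4.25, SE 0.238, adjusted p = 1.76e-14 by edgeR's quasi-likelihood test). Ifit3b behaved like its near copy, with 1.32 to 3.59 CPM in the combination (median 2.23). Its mean fell from 30.3 ± 10.2 to 2.32 ± 0.905 CPM, or 7.66% (log2 fold change −3.71, SE 0.266, adjusted p = 2.63e-12). The other two members kept a larger part of their level. Ifit1 ran from 33.0 to 48.9 CPM (median 45.1), and its mean of 42.4 ± 7.24 CPM was 20.1% of that with cisplatin, 211 ± 34.9 CPM (log2 fold change −2.32, SE 0.200). Ifit2 ran from 16.2 to 20.9 CPM (median 19.2), and its mean of 18.8 ± 1.77 CPM was 34.7% of 54.1 ± 12.5 CPM (log2 fold change −1.53, SE 0.163, adjusted p = 6.04e-09).

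Even so, the combination left all 4 members above AU-15330 alone. Here 41.7% of all tested genes were called, 22.2% higher and 19.5% lower, and the median log2 fold change was 1.58 for the members and 0.01 for all tested genes. Ifit3 rose 4.09-fold (log2 fold change 2.01, SE 0.287, adjusted p = 3.56e-06 by edgeR) and Ifit3b 3.95-fold (1.96, SE 0.347). Ifit3b passed the filter through the cisplatin-treated groups, so its difference is not tested. Ifit2 rose 2.32-fold (1.21, SE 0.170, adjusted p = 3.11e-06). The libraries of the groups did not overlap for these 3 genes, as for 29.6% of all tested genes when both directions are counted. Ifit1 rose 1.68-fold (0.75, SE 0.197), with overlapping libraries but higher values in 6 of 6 same-numbered pairs. Its difference here is also part of the interaction that led to the choice of the family, so it is not tested.

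Relative to DMSO, the combination raised the 4 members by log2 fold changes of 5.51 (Ifit1), 4.44 (Ifit2), 3.78 (Ifit3) and 4.06 (Ifit3b), without overlap between libraries. By edgeR, Ifit2 (adjusted p = 1.69e-15) and Ifit3 (adjusted p = 6.67e-10) were called. No test is given for Ifit1, whose libraries here entered the choice of the family. None is given for Ifit3b, which passed the filter through the cisplatin-treated groups. With replicates 1 to 3 alone the values were 6.40, 5.01, 5.53 and 6.02, and with replicates 4 to 6 alone 4.83, 3.96, 2.91 and 3.03. Of all tested genes 73.3% were called in this comparison and 36.8% were called higher, and 24.9% were higher without overlap.

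**Figure D2:**
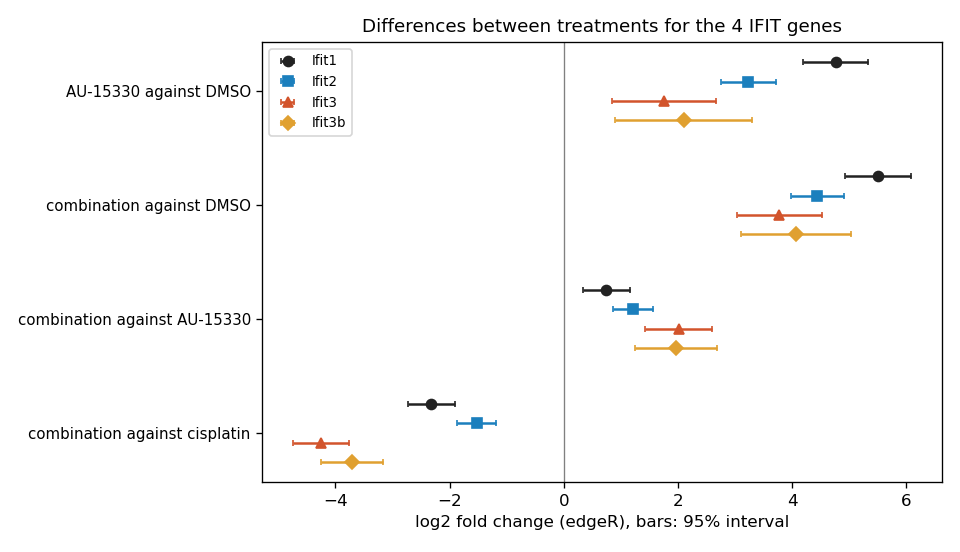
Fitted log2 fold change (horizontal axis) of each IFIT gene in 4 comparisons of treatments (vertical axis), with 95% intervals from edgeR. Ifit1 had the largest increase with AU-15330 over DMSO (4.76), and Ifit3 the largest decrease when AU-15330 was added to cisplatin (−4.25).

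The comparisons share libraries and are not independent of each other. Set side by side, the effect of AU-15330 was 4.76 without cisplatin and −2.32 with it for Ifit1 on the log2 scale, 3.24 and −1.53 for Ifit2, 1.76 and −4.25 for Ifit3, and 2.10 and −3.71 for Ifit3b. The interaction, the second value minus the first, was −7.08, −4.76, −6.01 and −5.81, and is not tested because it was used in picking the family. With replicates 1 to 3 alone it was −7.90, −5.21, −7.45 and −6.98, and with replicates 4 to 6 alone −6.46, −4.40, −5.37 and −5.62.

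The members did not move by equal amounts. The ratio of each member to Ifit1 within a library does not depend on the scaling of libraries. It was compared between 6 and 6 libraries in 3 comparisons. Ifit1, whose values led to the choice of the family, enters every ratio, so no test is given. With AU-15330 relative to DMSO, the mean log2 ratio to Ifit1 differed by −1.57 for Ifit2, −2.65 for Ifit3 and −2.21 for Ifit3b. Each was lower in 6 of 6 same-numbered pairs. With DMSO the ratios of Ifit3 and Ifit3b rest on 1 to 16 and 0 to 7 counts per library. The DMSO and AU-15330 libraries of Ifit1 also entered the interaction that led to the choice of the family, so these differences are not independent of that choice. The same holds for the ratios in the combination and cisplatin libraries, which follow.

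When AU-15330 was added to cisplatin, the ratio to Ifit1 fell by 1.90 for Ifit3 and by 1.40 for Ifit3b on the log2 scale, whereas that of Ifit2 rose by 0.82 (the same sign in 6 of 6 pairs for each). Between AU-15330 alone and the combination, the ratio rose by 1.23 for Ifit3 and by 1.08 for Ifit3b (6 of 6 pairs for both). For Ifit2 the difference was 0.43 (5 of 6 pairs). In this comparison same-numbered libraries deviated together.

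As shares of the family's counts, Ifit1 made up 41.4% ± 8.97 with DMSO, 71.0% ± 3.77 with AU-15330, 61.9% ± 1.74 with the combination and 55.0% ± 3.96 with cisplatin (SD, n = 6). Ifit3 made up 12.5% ± 6.21, 3.42% ± 0.479, 7.07% ± 0.753 and 23.5% ± 2.43 in the same order. The shares of Ifit3 in the 6 cisplatin libraries, 19.8% to 25.6%, lay above those of all libraries with AU-15330. Ifit2 had its lowest share with cisplatin, 13.9% ± 1.22. With DMSO the shares rest on 22 to 81 counts of the whole family per library.

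**Figure D3:**
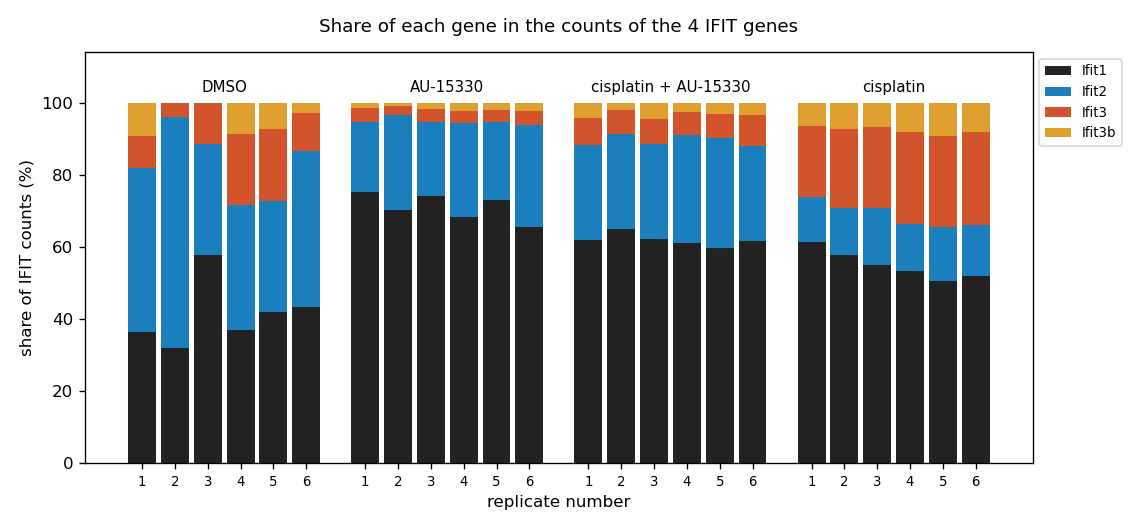
Share of each IFIT gene in the summed counts of the 4 genes (vertical axis, percent) in each library, by treatment and replicate number (horizontal axis). Ifit3 and Ifit3b together took up on average the largest part of the bars with cisplatin alone and the smallest with AU-15330 alone, and the DMSO bars rest on few counts.

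Levels of different genes were compared per kb of annotated exon. With cisplatin, Ifit1 was highest at 79.6 ± 13.1 CPM per kb, followed by Ifit3 at 53.0 ± 15.96, Ifit3b at 15.2 ± 5.12 and Ifit2 at 13.8 ± 3.19. The libraries of Ifit3b and Ifit2 overlapped on this scale, and those of Ifit1 and Ifit3 overlapped in part (62.1 to 93.3 and 37.9 to 69.98 CPM per kb). If only the stretches unique to each gene had been counted, the values per unique kb would have been 86.5 ± 14.3 for Ifit1 and 96.9 ± 29.2 for Ifit3, so the order of these members depends on how shared reads were treated. With AU-15330 the order was Ifit1 (9.48 ± 3.36 CPM per kb), Ifit2 (2.07 ± 0.540), Ifit3 (0.682 ± 0.230) and Ifit3b (0.294 ± 0.0827). Ifit2 was thus above Ifit3 with AU-15330 and below it with cisplatin, on either scale.

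Summing the counts of Ifit3 and Ifit3b avoids the question of how reads were divided between them. The sum rose by 1.88 with AU-15330 relative to DMSO on the log2 scale (adjusted p = 0.000418 by edgeR) and was lower in the combination than with cisplatin by a log2 fold change of −4.09 (adjusted p = 1.73e-13). Ifit3 and Ifit3b followed each other most closely among the members, with a root mean square difference of 0.44 between their centred log2 CPM values over the 24 libraries. The part that shared reads have in this closeness is unknown and was not tested. The difference was 0.79 between Ifit1 and Ifit2, 1.28 between Ifit1 and Ifit3, and 1.34 between Ifit2 and Ifit3.

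Replicates 1 to 3 and 4 to 6 of a treatment stood apart for several members, a split noticed in the data that the labels do not name. With cisplatin, replicates 4 to 6 were higher than 1 to 3 for all 4 members without overlap, with ratios of means of 1.31 (Ifit1), 1.49 (Ifit2), 1.75 (Ifit3) and 1.85 (Ifit3b). Of all tested genes 17.5% stood apart in this way. With AU-15330 the direction was the opposite, and replicates 4 to 6 were lower for Ifit1 (ratio 0.535), Ifit2 (0.644) and Ifit3 (0.616), as 16.2% of all tested genes were.

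With DMSO, replicates 4 to 6 were higher for Ifit1 (ratio 2.44) and Ifit3 (5.56), as 10.2% of all tested genes were, and the other members overlapped. With the combination all 4 members overlapped. The effect of adding AU-15330 to cisplatin was a decrease for all 4 members within either set of replicates, with log2 fold changes of −1.99 and −2.70 for Ifit1, −1.16 and −1.89 for Ifit2, −3.71 and −4.74 for Ifit3, and −3.00 and −4.38 for Ifit3b in replicates 1 to 3 and 4 to 6. The part that the division of replicates has in these differences was not tested.

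**Figure D4:**
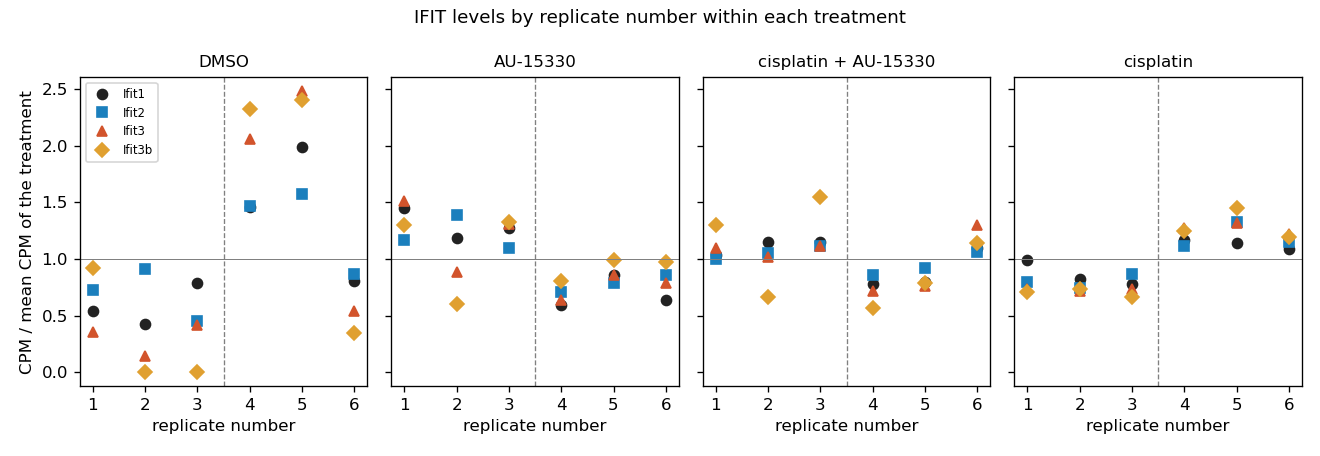
Level of each IFIT gene divided by its mean in the treatment (vertical axis) by replicate number (horizontal axis), with a dashed line between replicates 3 and 4. With cisplatin the points of replicates 4 to 6 lie above those of 1 to 3 for each gene, and with AU-15330 they lie below for Ifit1, Ifit2 and Ifit3.

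The paralogs within the cluster differed from each other. Ifit1bl1 and Ifit1bl2 had 0 counts in all 6 DMSO libraries, so their increases are lower bounds against a floor of 3 counts over the group. With cisplatin Ifit1bl1 reached 12.3 ± 3.71 CPM, at least 491-fold higher than DMSO, with 178 to 435 counts per library. In the combination it had 0 to 6 counts per library, a mean of 0.107 CPM that is below the floor of 1 library, and no library overlapped those with cisplatin. It passed the filter through the cisplatin libraries, so no test of this difference is given. Ifit1bl2, which shares the matches upstream of Ifit1, was at 0.516 ± 0.172 CPM with AU-15330, at least 20.6-fold higher than DMSO, with 6 to 19 counts per library. It too passed the filter through treated groups, so no test against DMSO is given. Unlike the 4 members, it did not differ detectably between cisplatin (0.823 ± 0.338 CPM) and the combination (0.821 ± 0.308 CPM), with a log2 fold change of −0.02 and a 95% interval from −0.65 to 0.61 (adjusted p = 0.964 by edgeR).

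Of 5 tested genes flanking the cluster, 3 rose and 2 fell with AU-15330 relative to DMSO, where 36.2% and 37.2% of all tested genes were called higher and lower. Those that rose were the lysosomal lipase gene Lipa by 1.05, the death receptor gene Fas by 1.67 and the kinesin gene Kif20b by 1.50 on the log2 scale, whereas Pank1, which encodes a pantothenate kinase, and Stambpl1 fell by 1.12 and 0.40. When AU-15330 was added to cisplatin, 1 of the 5 rose (Lipa, 0.45) and 1 fell (Pank1, −1.28), against 35.4% and 32.7% of all tested genes.

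Among the ligands upstream of the IFIT genes, transcripts of interferons were hardly detected. Of 20 type I and III interferon genes in the table, 12 had 0 counts in all libraries and 0 passed the filter, with at most 16 counts in a library. Ifnb1, which encodes interferon-β, had 0 counts with DMSO, at most 2 with AU-15330, 2 to 6 with cisplatin and at most 3 with the combination. Ifne, the interferon-ε gene, had 4 to 16 counts with AU-15330 and at most 6 with DMSO, 3 with cisplatin and 8 with the combination. Ifnz had at most 15 counts with AU-15330, 0 with DMSO, and at most 2 with cisplatin and 7 with the combination. Ifnab had at most 4 counts and Ifnl3 at most 3 in a library, both highest with cisplatin. Ifna4, Ifna16 and Ifnk had at most 1 count in a library. Summed over the 20 genes, the AU-15330 libraries lay at 0.572 to 0.825 CPM, above all libraries with DMSO (0 to 0.313), cisplatin (0.181 to 0.454) and the combination (0.0929 to 0.527). Ifnb1 instead had more counts in each cisplatin library than in any DMSO library. None of these genes was in the fit, so no test is given.

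Stat2 and Irf9 encode subunits of ISGF3. Stat2 was at 42.1 ± 5.78 CPM with DMSO, 178 ± 24.8 with AU-15330, 250 ± 47.8 with cisplatin and 163 ± 24.8 with the combination. It rose with AU-15330 relative to DMSO by 2.08 on the log2 scale (SE 0.130, adjusted p = 1.14e-13 by edgeR) and fell when AU-15330 was added to cisplatin by 0.61 (adjusted p = 9.86e-05), against −1.53 to −4.25 for the IFIT members. Between AU-15330 alone and the combination Stat2 was not called, with a log2 fold change of −0.12 (SE 0.123, adjusted p = 0.450 by edgeR). Irf9 rose from 17.5 ± 2.05 CPM with DMSO to 124 ± 6.95 CPM with AU-15330 (log2 fold change 2.82, SE 0.086, adjusted p = 6.04e-20 by edgeR), and was at 96.5 ± 8.01 CPM with cisplatin and 92.6 ± 10.4 CPM with the combination. Between AU-15330 alone and the combination Irf9 fell by 0.42 (adjusted p = 0.000131), where the IFIT members rose.

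Of 8 genes for receptor chains, kinases and these ISGF3 subunits, 3 rose and 3 fell with AU-15330 relative to DMSO (36.2% and 37.2% of all tested genes), and 1 rose and 4 fell when it was added to cisplatin (35.4% and 32.7%). Ifnar2, a chain of the type I receptor, fell by 0.62 with AU-15330 relative to DMSO, and Ifnlr1 and Il10rb, which form the type III receptor, by 1.07 and 0.31. Jak1, a receptor kinase, had 238 ± 15.2 CPM in DMSO and 318 ± 10.9 CPM in AU-15330 libraries. Ifnar1 lay between 112 and 118 CPM and Tyk2 between 48.7 and 54.9 CPM in the means of the 4 groups.

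**Figure D5:**
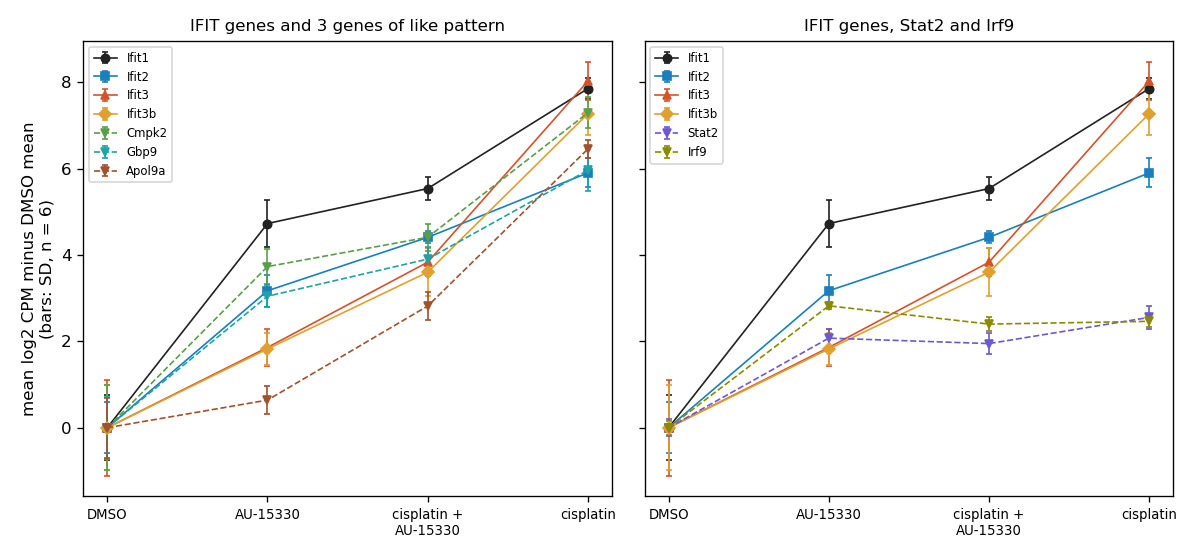
Mean log2 CPM minus the DMSO mean (vertical axis, error bars SD over 6 libraries) by treatment (horizontal axis), for the IFIT genes with 3 genes of like pattern on the left and with Stat2 and Irf9 on the right. The IFIT genes are highest with cisplatin, whereas Irf9 is highest with AU-15330 alone.

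Of 12 activators that can induce IFIT genes directly, 7 rose and 4 fell with AU-15330 relative to DMSO, against 36.2% and 37.2% of all tested genes. Dhx58 (4.33), Irf7 (4.30) and Ddx58 (3.32), which encode LGP2, IRF7 and RIG-I, had the largest log2 increases, and Irf5 (−5.54), Sting1 (−2.47) and Mavs (−1.40) the largest decreases. When AU-15330 was added to cisplatin, 5 rose, led by Irf1 (1.47) and Cgas (0.80), and 4 fell, led by Irf5 (−3.91), Sting1 (−1.45) and Irf7 (−0.83), against 35.4% and 32.7% of all tested genes. Of 14 tested inhibitors of interferon signaling, 5 rose and 5 fell with AU-15330 relative to DMSO, against the same 36.2% and 37.2%. The largest increases were those of Isg15 (7.16), Usp18 (6.35), whose product blocks the type I receptor, and Socs1 (2.46), and the largest decrease that of Ptpn6 (−2.63), which encodes the phosphatase SHP-1, followed by Irf2 (−0.79) and Ptpn1 (−0.76). When AU-15330 was added to cisplatin, Isg15 rose by 0.69, Usp18 fell by 0.84 and Ptpn6 fell by 2.06.

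Among 42 tested core interferon-stimulated genes other than the IFIT genes, 33 rose and 5 fell with AU-15330 relative to DMSO (36.2% and 37.2% of all tested genes), with a median log2 fold change of 2.44, against 2.67 for the members. Oas1a (6.92), Ddx60 (5.56) and Gbp2 (5.37) rose most, while Mx1 (−4.84), Ifitm1 (−3.75) and Isg20 (−2.25) fell. When AU-15330 was added to cisplatin, 25 fell and 10 rose (32.7% and 35.4% of all tested genes), with a median of −0.53, against −3.01 for the IFIT members. Oas2 (−7.20), Oas3 (−6.89) and Mx1 (−6.85) had larger decreases than any member, while Tor3a (1.30), Herc6 (1.24) and Trim21 (1.20) rose. Between AU-15330 alone and the combination, 12 rose and 11 fell (22.2% and 19.5% of all tested genes). Oas3 (2.23), Rsad2 (2.16) and Zbp1 (2.15) rose most, and Trim21 (−0.52), Oasl2 (−0.47) and Ddx60 (−0.46) fell most. All values are log2 fold changes called by edgeR.

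Genes with the pattern most like each member were ranked by the root mean square difference of centred log2 CPM over the 24 libraries. For Ifit1 they were Cmpk2 (0.55), Gbp3 (0.60), Rsad2 (0.81), Oas1g (0.87) and Gbp9 (0.90). For Ifit2 they were Gbp9 (0.49), Oas1g (0.50), Mx2 (0.66), Rsad2 (0.71) and Clip3 (0.72). For Ifit3 the closest were Apol9a (0.80), Zbp1 (0.80), Rsad2 (0.82), Cmpk2 (1.01) and Apol9b (1.06), and for Ifit3b they were Apol9a (0.66), Zbp1 (0.70), Rsad2 (0.71), Ifi27l2a (0.85) and Cmpk2 (0.88). Ifit1 and Ifit2 had Rsad2, Oas1g and Gbp9 in common, and Ifit3 and Ifit3b had Apol9a, Zbp1, Rsad2 and Cmpk2. Ifit1 was closer to Cmpk2 than to any other IFIT gene, whereas Ifit3 and Ifit3b were closer to each other than to any gene outside the members. Reads shared by Ifit3 and Ifit3b may enter this last likeness, which was not tested.

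Genes whose products act with IFIT proteins or on the RNA ends that they read had smaller changes among the values named here. Cmtr1, which encodes the cap 2′-O-methyltransferase that marks self mRNA, rose with AU-15330 relative to DMSO by 1.22 and when AU-15330 was added to cisplatin by 0.46 on the log2 scale. In the list of 8 genes for cap formation and RNA ends, 2 rose and 5 fell with AU-15330 relative to DMSO (36.2% and 37.2% of all tested genes). Among those that fell were Dusp11 (−0.79), Ramac (−0.57) and Rnmt (−0.49). Of 12 tested eIF3 subunit genes, 1 rose and 6 fell in the same comparison, against the same shares, with changes from −0.94 (Eif3f) to 0.15 (Eif3l) among those called, and 5 rose and 1 fell when AU-15330 was added to cisplatin (35.4% and 32.7% of all tested genes).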

How the data were processed

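RNA from ID8 P53 KO cells was made into strand-directional, poly(A)-selected libraries and sequenced as single-end reads of 70 bases. The authors aligned reads with STAR (2.7.1a, genome mm10, per the submitters' processing notes) and deposited raw read counts per gene symbol for 2 lanes of each of 24 libraries. The counting tool, its use of strand and the annotation are not given in the sources used here. The cisplatin dose is that of the labels, and the study's methods state a different dose for this line.

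Lanes were summed. The count test was that of edgeR 4.0.16 (R 4.3.3), with TMM scaling, filterByExpr (12941 of 25229 genes kept), the quasi-likelihood F test in 1 fit of the 4 groups with 20 residual degrees of freedom, and Benjamini-Hochberg adjustment over all tested genes with a threshold of 0.05. Log2 CPM used a prior count of 2, and 0.5 was added to counts in ratios. Tested on simulated data with 200 changed genes for AU-15330 against DMSO, 182 were called, with 7 false calls among 12723 genes. In the real comparison 73.4% of tested genes were called, a far larger share, so the simulation does not measure the error rate here. Genes were located with GENCODE M21 (GRCm38), and promoter sequences are from RefSeq (GRCm38.p6).

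The members and gene lists were chosen with earlier results of these data known. Genes were named by rule: the members, the 5 genes of most like pattern for each, and from each list and comparison up to 3 called genes with the largest change in each direction, of which a part is printed; the paralogs, the interferons with counts, and genes for receptors, kinases and ISGF3 were also named. Marker genes named come from lists of cell type markers and were picked after their values were seen. Alternatives were DESeq2 1.42.0, other scalings, no filter, single lanes, fits of 2 groups, Ifit3 and Ifit3b summed, a replicate block, and leaving out each replicate number. Same-numbered libraries deviated together (each of 6 correlations above 0.1, from 0.101 to 0.483) in the combination against AU-15330, and not by this measure elsewhere. A listed gene is not reported here.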

Additional observations from a re-analysis of the deposited data

Results flagged for a closer look

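In each of the 4 IFIT genes, AU-15330 was accompanied by higher levels in 6 of 6 same-numbered pairs without cisplatin and by lower levels in 6 of 6 pairs with cisplatin. The difference between these effects on the log2 scale was −7.08 for Ifit1, −4.76 for Ifit2, −6.01 for Ifit3 and −5.81 for Ifit3b. This difference was not tested, because the family was picked with it known for Ifit1. No library stood far from the others of its group by Dixon's criterion in any of the 16 sets of member and treatment.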

How the results depend on the processing

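The member calls given above held under every alternative set beforehand in which the member was fitted. Ifit3b did not pass the filter in the fit of DMSO and AU-15330 alone, and summing Ifit3 and Ifit3b leaves 3 features. In the edgeR fit the replicate block changed no call of a member. With the replicate block by sign-flip permutation, the Ifit2 to Ifit1 ratio between AU-15330 and the combination (0.43) had an adjusted p of 0.0625, while the other 8 ratios were at 0.0352, each with the smallest unadjusted p that 6 pairs allow. With replicates 4 to 6 only, chosen after seeing the data, 2 members were called for AU-15330 against DMSO. With replicates 1 to 3 only, the median interaction was −7.22 (−5.91 with all libraries), and 2817 genes in place of 5394 were called between AU-15330 and the combination. The cause was not tested. Depth limits the DMSO levels of Ifit3 and Ifit3b, which rest on 42 and 16 counts in all.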
